A study of Mus musculus with 4 samples.

Results

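The comparison is between the immune cells of tumours from mice given anti-PD-1 alone and those from mice given anti-CTLA-4 alone, read directly against each other. It rests on 1 single-cell RNA library for each antibody, with 3417 listed cells for anti-PD-1 and 3336 for anti-CTLA-4, out of 14491 listed cells in the whole series. The submitters' table sorts all listed cells into 19 clusters. Levels were compared within the 11 clusters that held 50 or more cells in both libraries, which hold 3140 anti-PD-1 and 3064 anti-CTLA-4 cells. Shares of the library were compared for all 19.

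All mice were wild-type 129S6 animals carrying transplanted tumours. The anti-PD-1 group received clone RMP1-14 and the anti-CTLA-4 group clone 9D9, each at 200 µg by the intraperitoneal route on days 3, 6 and 9 after transplant. A control group received 200 µg of rat IgG2a isotype antibody, and its 3793 cells serve here to show on which side of isotype-treated tumours each antibody lay. The tumour line, the day of excision, the age of the mice and how many animals were pooled are not stated in the labels. Live CD45+ cells were sorted from digested tumours and put through 10x Genomics 3′ chemistry, which counts each captured messenger RNA molecule by a unique molecular identifier (UMI).

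With 1 library per antibody there is no replicate of either treatment, so no test between treatments can be made and no p-value is given. Each interval below is a 95% interval for counting error only. It covers neither differences between mice nor between preparations. For gene levels each UMI counts as independent, so the spread between cells is left out as well. Treatment, mouse, tumour and library preparation cannot be told apart, and all comparisons with control use the same control library.

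Both antibodies block a receptor that restrains T cells. CTLA-4 competes with the costimulatory receptor CD28 for its ligands on antigen-presenting cells and is abundant on regulatory T cells. PD-1 is engaged by PD-L1 and PD-L2 in the tissue and dampens signals from the T cell receptor. Macrophages express neither as a defining gene, but they respond to interferon-gamma from lymphocytes, and tumour macrophages range from inflammatory states that make nitric oxide to states marked by scavenger receptors such as CD206 (gene Mrc1) and CD163.

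The marker genes of each cell type were looked up in the deposited clusters. Clusters 1, 2, 4 and 7 were macrophage/monocyte-like, although no marker stood among the 10 leading genes of clusters 4 and 7. Cluster 0 was kept by its number, since its leading genes (Gm9733, Gpr141, Gm4841, Il1r2, Ms4a4c and Plac8 among them) were not those of a single fixed type. It was nonetheless like clusters 4 and 7 in the markers its cells carried. Of the macrophage/monocyte markers, 9 were seen in 25% or more of its cells, beside 11 in cluster 4 and 10 in cluster 7. No other type had 3 or more such markers in cluster 0. Clusters 3, 6, 8 and 9 were T cell-like, led by Cd4, by Il7r and Cd7, by Cd8 genes and by genes of the cell cycle, in that order. Cluster 5 was NK cell-like and cluster 11 conventional dendritic cell-like. Depth was close in the pair, with a median of 2824 UMIs per cell for anti-PD-1 and 2991 for anti-CTLA-4. The 2 libraries shared 12 cell barcodes, 3 of them in the same cluster.

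Clusters 0, 1, 2, 4 and 7, that is unnamed cluster 0 and 4 macrophage/monocyte-like clusters, differed in their mix more than in their sum. Together they made up 62.7% of anti-PD-1 cells and 61.2% of anti-CTLA-4 cells, against 50.3% of control cells, and the ratio of 1.03 between the antibodies had an interval of 0.964 to 1.09. Within that sum, cluster 7 was the furthest apart: 139 cells (4.07%) with anti-PD-1, 282 (8.45%) under anti-CTLA-4 and 106 (2.79%) in control. The ratio of anti-PD-1 to anti-CTLA-4 was 0.481 (0.390 to 0.592). The leading genes of cluster 7 include Rsad2, Inhba and Nos2, which are described below.

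Cluster 0 was larger with anti-PD-1, at 26.2% against 19.3%, with 13.5% in control (ratio 1.36, 1.23 to 1.51). Cluster 2 was also larger with anti-PD-1, at 16.1% against 13%, with 4.19% in control (ratio 1.23, 1.08 to 1.40). Cluster 1, which led the control library with 28.3% of its cells, was smaller with anti-PD-1 (8.98%) than with anti-CTLA-4 (12.5%), a ratio of 0.719 (0.618 to 0.835). Cluster 4 was above its control share with both antibodies (7.37% and 7.88%, against 1.45%), and the antibodies' own ratio was 0.935 (0.784 to 1.12). Both antibody libraries thus lay on the same side of control for these 4 clusters.

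Among lymphocytes the cycling T cell-like cluster 9 was the smaller one with anti-PD-1, at 108 cells (3.16%) against 202 cells (6.06%). Control stood at 3.61%, so that the anti-PD-1 share was beside control and the anti-CTLA-4 share 1.68 times it. The Gzmg- and Gzmd-led cluster 14 differed alike, with 35 cells (1.02%) against 70 (2.10%) and 0.685% in control. The regulatory T cell-like cluster 10 was lower with both antibodies than in control (4.80%), and lower with anti-CTLA-4 (48 cells, 1.44%) than with anti-PD-1 (82 cells, 2.40%). That ratio was 1.67, with an interval of 1.15 to 2.43. The separate lymphoid table of the submitters covers the same libraries under its own cluster numbers, and its markers were not looked up. Its cluster 7 had 53 cells with anti-PD-1, 28 under anti-CTLA-4 and 185 in control. Whether it holds the cells of cluster 10 was not tested.

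NK cell-like cluster 5 held 8.81% of anti-PD-1 cells and 6.56% of anti-CTLA-4 cells, with 8.17% in control (ratio 1.34, 1.12 to 1.60). The Cd8-led cluster 8 was at 2.69% and 2.73%, both under the 6.67% of control, with a ratio of 0.987 (0.731 to 1.33). The ratios of clusters 3, 4, 6, 8, 11, 12, 15, 16, 17 and 18 had intervals that included 1. Cluster 18 held only 10 and 12 cells, and its interval ran from 0.315 to 2.05, so that a difference inside that range was not detectable. Cluster 13, which mixes markers of several lineages and stays unnamed, had 41 and 21 cells. Of those, 30 and 15 carried T cell and macrophage transcripts together.

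**Figure D1:**
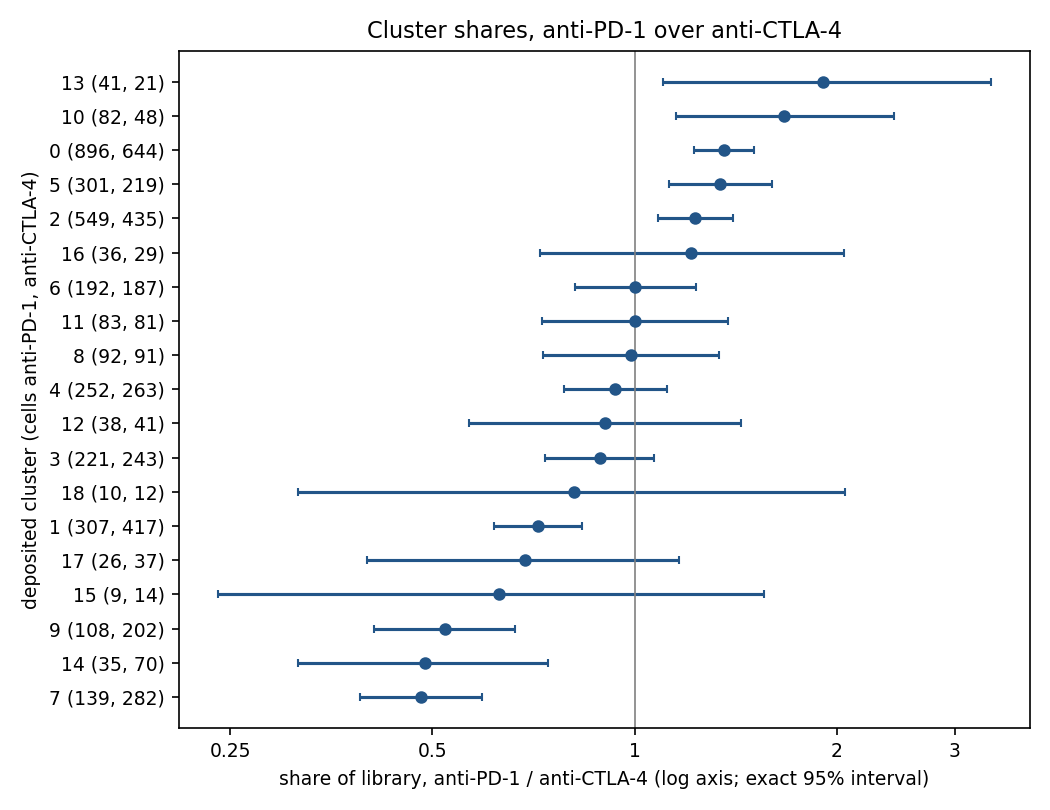
Share of each deposited cluster in the anti-PD-1 library divided by its share in the anti-CTLA-4 library (log axis), with exact 95% counting intervals and the cells of each library in brackets. Clusters 7, 14, 9 and 1 lie below 1 with their whole interval, and clusters 2, 5, 0, 10 and 13 above it.

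For levels, the UMIs of a gene were summed over the cells of a cluster in each library and expressed per 1000000 UMIs of that cluster (CPM). A positive log2 ratio means a higher level with anti-PD-1. A gene was called past the fold at 1.5-fold or more in either direction, among genes with 50 or more UMIs in the 2 libraries together. Because a sum can be carried by a single cell, the ratio was also taken without the cell with the most UMIs of that gene in each library. In clusters 3, 4, 5, 6, 7, 8, 9 and 11, 7 or 8 of the 8 genes at the extremes of each cluster had over 50% of their UMIs in 1 cell. Such genes are therefore not described unless they are members of the fixed lists, apart from Cma1 in cluster 6, given as a matter of few cells. The other genes below are mainly those of the fixed lists or those seen in at least 10% of the cells of the higher library. That limit was set after this was seen.

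Most genes of the alternatively activated and resident list that could be read in clusters 0, 1, 2, 4 and 7 were higher with anti-PD-1. A separate list of complement C1q and tissue macrophage genes, given below, was mixed. Of the 29 genes of the alternatively activated and resident list, 21 could be read in cluster 2, 19 of them were higher with anti-PD-1 and 13 were past the fold, beside 13.1% of all genes there. In cluster 1, 17 of 21 were higher and 15 past the fold, beside 10.5% of all genes. The medians were 0.84 in cluster 2 and 0.89 in cluster 1, where the medians of all genes were 0.07 and 0.03. Cluster 0 had 13 of 16 higher and 8 past the fold (9.16% of all genes), with a median of 0.56. Cluster 7 had 10 of 13 higher and 7 past the fold (14.3% of all genes), with a median of 0.60. In cluster 4 the list was closer to the rest, with 10 of 12 higher, 3 past the fold (8.22% of all genes) and a median of 0.26, which was 0.00 after every cell was thinned to 1000 UMIs. On the anti-CTLA-4 side, 2 members were past the fold in cluster 4 (7.89% of all genes). There was 1 in each of clusters 0, 1, 2 and 7 (7.29%, 9.47%, 7.92% and 10.1%).

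Mrc1, which encodes the mannose receptor CD206, was higher with anti-PD-1 in each of these 5 clusters. In cluster 2 it stood at 546 CPM with anti-PD-1 (1091 UMIs), 183 CPM with anti-CTLA-4 (252 UMIs) and 364 CPM in control, a log2 ratio of 1.58 (1.38 to 1.78). The control library thus lay between the antibodies there. In cluster 1 the levels were 301, 157 and 214 CPM in the same order (log2 ratio 0.94, 0.71 to 1.18), with control again in between. Mrc1 was seen in 61.6% of anti-PD-1 cells and 31.7% of anti-CTLA-4 cells of cluster 2. After thinning to 1000 UMIs these shares were 33.7% and 13.9%, and 24.7% in control. In cluster 7 the log2 ratio was 1.55 (0.99 to 2.14), from 153 and 52.0 CPM, with 113 CPM in control. Clusters 0 and 4 gave 1.01 (0.64 to 1.40) and 0.97 (0.30 to 1.71).

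Cd163, the haemoglobin scavenger receptor, was low in most cells and apart between the antibodies. In cluster 2 it had 279 UMIs with anti-PD-1 (140 CPM), 30 with anti-CTLA-4 (21.8 CPM) and 22 in control (36.1 CPM). The log2 ratio was 2.66 (2.14 to 3.28), and 2.69 without the cell with the most UMIs in each library. It was seen in 14.4% of anti-PD-1 cells and 3.7% of anti-CTLA-4 cells. In cluster 1 it had 44 and 9 UMIs, a log2 ratio of 2.58 (1.59 to 3.86), in 3.6% and 1.2% of cells, and the ratio was 1.19 after thinning. Here the anti-PD-1 library alone stood apart, since anti-CTLA-4 and control were both low.

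Cbr2, a carbonyl reductase gene found in resident macrophages, had 126 CPM with anti-PD-1 in cluster 2, 27.6 with anti-CTLA-4 and 111 in control, a log2 ratio of 2.18 (1.70 to 2.73). Folr2, the folate receptor beta of resident macrophages, had 164, 68.2 and 144 CPM in cluster 2 (log2 ratio 1.26, 0.93 to 1.61) and 87.1, 33.8 and 45.0 CPM in cluster 1 (1.36, 0.89 to 1.86). For Cbr2 and Folr2 in cluster 2 the anti-PD-1 level was beside that of control, and the anti-CTLA-4 level below both. Apoe, an apolipoprotein gene, was at 2412 CPM with anti-PD-1 in cluster 1, 999 with anti-CTLA-4 and 1116 in control (1.27, 1.18 to 1.36). In cluster 2 it was at 2550, 1422 and 3015 CPM (0.84, 0.77 to 0.92), and in cluster 7 at 424, 125 and 372 CPM (1.75, 1.41 to 2.11). Apoe was therefore above control with anti-PD-1 in cluster 1, and below control with anti-CTLA-4 in clusters 2 and 7. The lysosome and lipid handling list, which does not hold Apoe, did not follow it. In cluster 2, 7 of 19 were higher with anti-PD-1, with 0 past the fold there and 6 on the anti-CTLA-4 side (13.1% and 7.92% of all genes). The median was -0.08, and 0.12 after thinning. In clusters 0, 1, 4 and 7, 5 of 15, 5 of 16, 8 of 15 and 8 of 17 were higher.

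Relative to control, the list's median in cluster 1 was 0.96 with anti-PD-1 and -0.00 with anti-CTLA-4, and 20 and 10 of the 21 genes lay above control. In cluster 2 the medians were 0.23 and -0.66, and in cluster 7 they were 0.43 and -0.15. In clusters 0 and 4 the medians of both antibodies lay above control, at 0.79 and 0.36 in cluster 0 and 0.42 and 0.13 in cluster 4. Arg1, the arginase gene of the same list, was above control with both antibodies. In cluster 0 it had 376 CPM with anti-PD-1, 185 under anti-CTLA-4 and 57.6 in control (log2 ratio 1.02, 0.85 to 1.20). In cluster 2 the antibodies were closer, at 2712 and 2440 CPM, with 1590 in control (0.15, 0.09 to 0.22).

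Ccl24, an eosinophil-attracting chemokine that alternatively activated macrophages make, was near absent from control and present with both antibodies, more so with anti-PD-1. In cluster 2 it had 3169 UMIs with anti-PD-1 (1585 CPM), 739 with anti-CTLA-4 (536 CPM) and 3 in control (4.92 CPM), a log2 ratio between the antibodies of 1.56 (1.45 to 1.68). It was seen in 51.5% and 24.8% of cells. In cluster 0 it had 652, 87.6 and 8.40 CPM (2.89, 2.67 to 3.13), and in cluster 1 738, 265 and 4.52 CPM (1.48, 1.31 to 1.65). In cluster 7 it had 487 and 251 CPM and 0 of 371137 UMIs in control, which allows up to 8.08 CPM there. The order anti-PD-1, anti-CTLA-4, control held in clusters 0, 1, 2, 4 and 7, and cluster 4 gave 195, 50.8 and 4.24 CPM (1.93, and 2.91 after thinning). Ccl24 was also higher with anti-PD-1 than with anti-CTLA-4 in the T cell-like cluster 3 (3.32) and in cluster 11 (0.53).

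Among other chemokines for monocytes, Ccl7, Ccl8 and Ccl12 were higher with anti-PD-1 in cluster 2. Ccl7 in cluster 2 was at 1922 CPM with anti-PD-1, 666 under anti-CTLA-4 and 1751 in control (log2 ratio 1.53, 1.43 to 1.64), and Ccl12 at 1573, 761 and 1204 CPM (1.05, 0.95 to 1.15). Ccl8 took up the largest sum of any listed chemokine in cluster 2: 45141 CPM with anti-PD-1, 28614 under anti-CTLA-4 and 12932 in control (0.66, 0.64 to 0.67). In cluster 7 Ccl8 had 9749, 3746 and 811 CPM (1.38, 1.31 to 1.45). Cluster 4 was the exception among clusters 0, 1, 2, 4 and 7, with 722 CPM against 1235 (log2 ratio -0.77, -0.90 to -0.65, and -0.43 after thinning). Ccl8 was also higher with anti-PD-1 in the T cell-like clusters 3, 6, 8 and 9 (1.81, 1.16, 2.83 and 1.77). In cluster 8 it was 2.23 without 1 cell in each library. It was lower in clusters 5 and 11 (-0.87 and -0.94). Of the whole chemokine list, 13 of 16 were higher in cluster 0 and 9 past the fold (9.16% of all genes). In cluster 1, 10 of 16 were higher, with 8 past the fold on the anti-PD-1 side and 2 on the anti-CTLA-4 side (10.5% and 9.47% of all genes). Clusters 2 and 7 held members on both sides, with 7 and 3 past the fold in cluster 2 (13.1% and 7.92% of all genes) and 8 and 5 in cluster 7 (14.3% and 10.1%). Cluster 4 had 6 and 2 past the fold (8.22% and 7.89%). In the dendritic cell-like cluster 11 the list leaned the other way, with 5 of 13 higher, 3 and 5 past the fold (15.9% and 7.52% of all genes) and a median of -0.47.

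**Figure D2:**
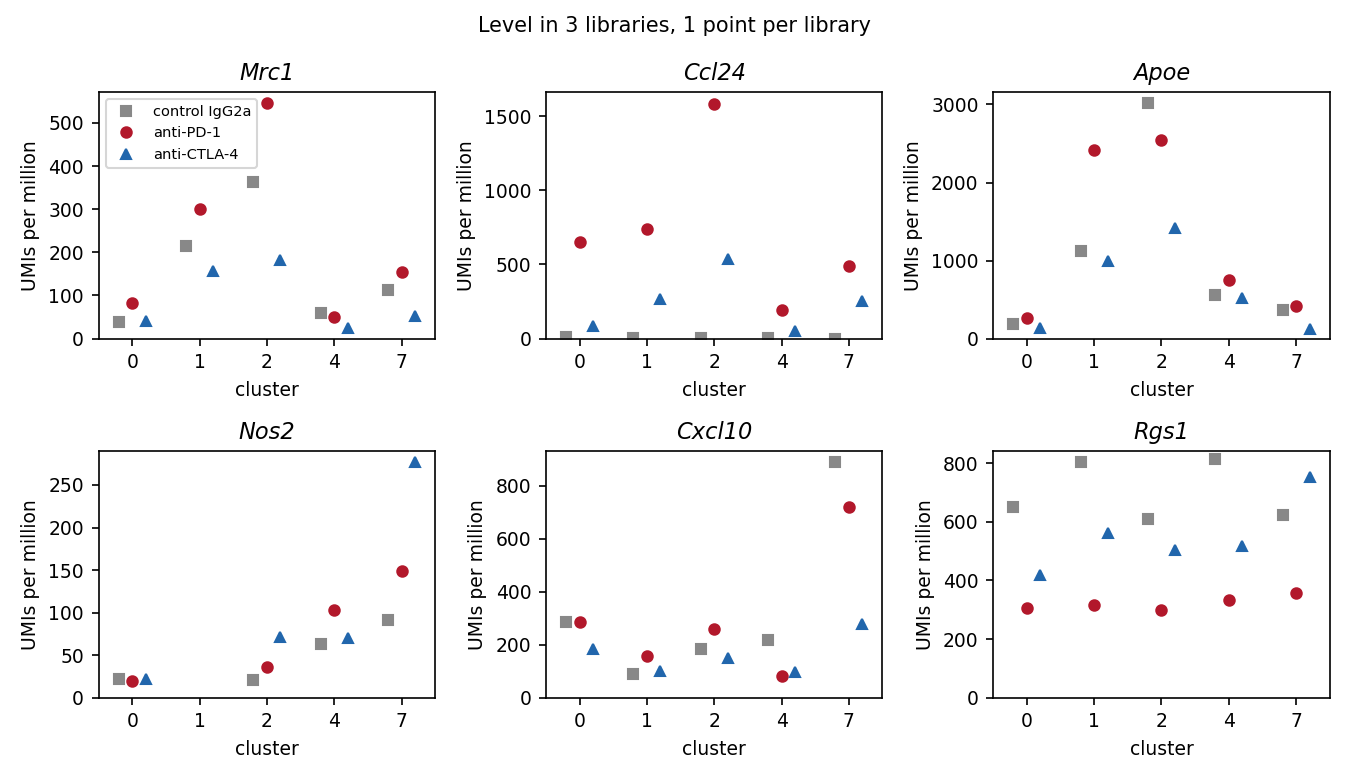
Level of 6 genes in CPM (y axis from 0) in clusters 0, 1, 2, 4 and 7, with 1 point for each of the 3 libraries and no error bar since there is 1 library each. Ccl24 falls in the order anti-PD-1, anti-CTLA-4, control in all 5 clusters, and Rgs1 is lowest with anti-PD-1 in all 5. Nos2 is not shown in cluster 1, where it had under 50 UMIs in the 2 libraries together.

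The inflammatory macrophage genes split by cluster. In cluster 7, 6 of 16 were higher with anti-PD-1, and 5 were past the fold on the anti-CTLA-4 side, beside 10.1% of all genes there. Cluster 2 was similar, with 5 of 14 higher with anti-PD-1 and 5 past the fold on the anti-CTLA-4 side (7.92% of all genes). The medians were -0.22 and -0.19, with 1 and 0 past the fold on the anti-PD-1 side (14.3% and 13.1% of all genes). In clusters 0 and 4 the list leaned the other way, with 11 of 15 and 10 of 15 higher with anti-PD-1 and medians of 0.49 and 0.38. Each had 3 past the fold on the anti-PD-1 side (9.16% and 8.22% of all genes). On the anti-CTLA-4 side 0 and 1 were past it (7.29% and 7.89%). Cluster 1 had 5 of 11 higher and a median of -0.10, with 1 past the fold in each direction (9.47% of all genes on the anti-CTLA-4 side).

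Nos2, which encodes inducible nitric oxide synthase, was higher with anti-CTLA-4 in cluster 7, at 149 CPM with anti-PD-1 (66 UMIs), 277 with anti-CTLA-4 (234 UMIs) and 91.6 in control (log2 ratio -0.89, -1.31 to -0.50, and -0.56 after thinning, which is under the fold). Both antibodies lay above control. In cluster 2 it had 36.5, 71.8 and 21.3 CPM (-0.97, -1.43 to -0.52). Of the 282 anti-CTLA-4 cells of cluster 7, 41.1% had a Nos2 UMI, against 29.5% of the 139 anti-PD-1 cells. After thinning, the shares were 22.1% and 13.9%. In cluster 0 the ratio of -0.18 had an interval of -0.78 to 0.44, and in cluster 4 the ratio of 0.55 was -0.03 without 1 cell in each library and 1.39 after thinning.

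Ptgs2, the inducible cyclooxygenase, was lower with anti-PD-1 in clusters 1, 2 and 7 by log2 ratios of -1.02, -1.14 and -1.13. In cluster 7 it had 119 CPM against 264, with 189 in control. After thinning, the ratios of clusters 1 and 2 were 0.06 and -0.55, both under the fold. Inhba, which encodes the activin A subunit, had 26.5 CPM with anti-PD-1 in cluster 2, 94.3 with anti-CTLA-4 and 21.3 in control (-1.82, -2.32 to -1.36), and 548, 864 and 202 CPM in cluster 7 (-0.66, -0.87 to -0.45, and -0.50 after thinning). Cxcl1, a chemokine for neutrophils, had 45.1 CPM in cluster 7 with anti-PD-1, 210 under anti-CTLA-4 and 88.9 in control (-2.19, -2.97 to -1.55, and -1.58 after thinning). Il1a in cluster 7 had 7 and 52 UMIs (-1.88, -3.35 to -0.82, and -3.22 without 1 cell in each library), and in cluster 4 it was on the opposite side, with 60 and 18 UMIs (1.64, 0.89 to 2.52). Il1b, the interleukin-1 beta gene, was close in clusters 0, 1, 2, 4 and 7, with ratios from -0.22 to 0.16.

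Genes higher with anti-CTLA-4 outside that list included H2-M2, a nonclassical class I gene, in clusters 1 and 2. It had 98.1 CPM with anti-PD-1, 404 under anti-CTLA-4 and 197 in control in cluster 1 (log2 ratio -2.04, -2.33 to -1.76), and 110, 391 and 138 CPM in cluster 2 (-1.83, -2.07 to -1.61). Acp5, the tartrate-resistant acid phosphatase of macrophages and osteoclasts, had 30.5, 106 and 60.7 CPM in cluster 2 (-1.79, -2.25 to -1.35) and 47.9, 123 and 92.3 CPM in cluster 1 (-1.35, -1.80 to -0.94). Cadm1, a cell adhesion gene, had 15.7, 75.6 and 97.5 CPM in cluster 1 (-2.24). For Cadm1 and Acp5 the anti-CTLA-4 level was the one nearer to control in cluster 1. Lpl, the lipoprotein lipase gene, was lower with anti-PD-1 in cluster 2 (-2.83, and -1.95 after thinning), in at most 3.2% of cells. Cd36, a scavenger receptor for lipids and a member of the alternatively activated list, went against that list in cluster 2 (-1.38, in at most 6.9% of cells), and was at -0.36 after thinning. Ly6c2, a monocyte gene, was lower with anti-PD-1 in all 5 clusters, past the fold in clusters 0 (-0.60, and -0.43 after thinning) and 2 (-0.76). The monocyte list as a whole did not follow it. In clusters 1, 2 and 7, 9 of 11, 9 of 12 and 8 of 12 members read were higher with anti-PD-1. The medians there were 0.34, 0.17 and 0.49. In clusters 0 and 4, 4 of 13 and 5 of 12 were higher, with medians of -0.09 and -0.12.

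On the anti-PD-1 side, the genes outside the lists that were seen in 10% of cells included Saa3 and Timp1. Saa3, an acute-phase protein gene, had 145 CPM in cluster 1 with anti-PD-1, 19 under anti-CTLA-4 and 13 in control (log2 ratio 2.91, 2.38 to 3.53, 2.77 without 1 cell in each library and 2.04 after thinning). Timp1, an inhibitor of metalloproteinases, had 171 CPM in cluster 7, against 20.1 and 37.7 (3.06, 2.32 to 3.94, and 3.07 without 1 cell in each library). 

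**Figure D3:**
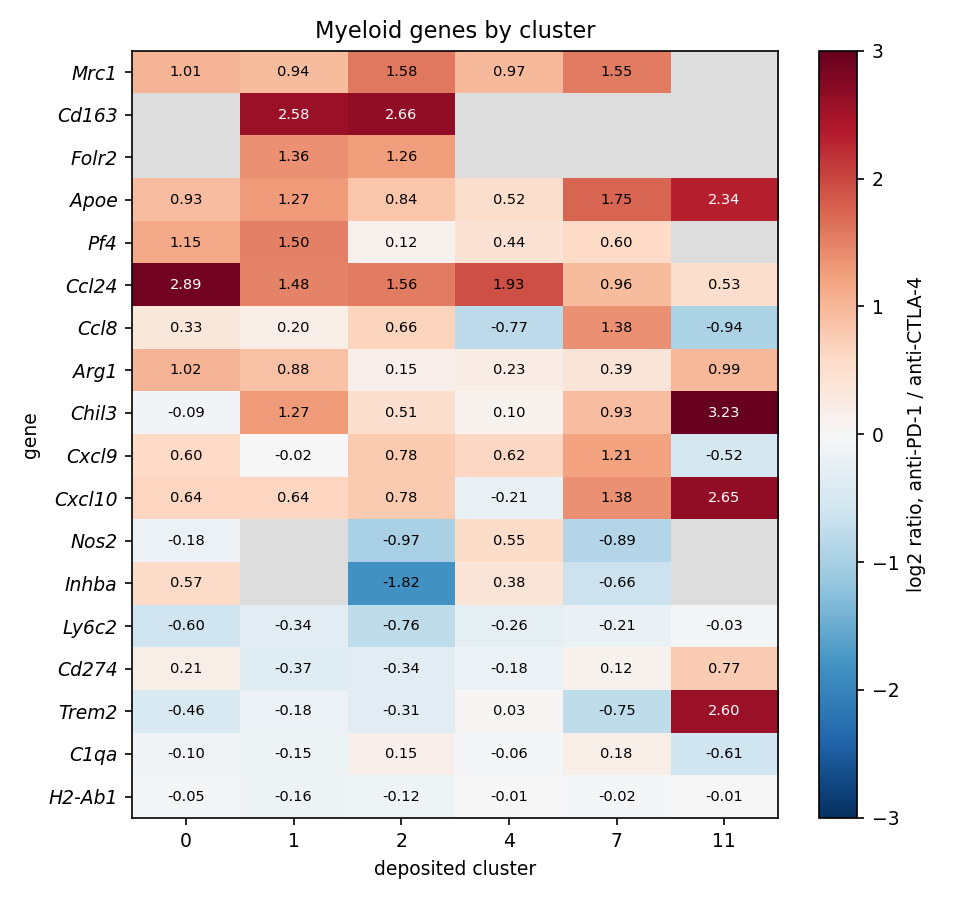
Log2 ratio of anti-PD-1 to anti-CTLA-4 for 18 myeloid genes in clusters 0, 1, 2, 4, 7 and 11, with grey where a gene had under 50 UMIs in the 2 libraries together. The rows of Mrc1, Apoe and Ccl24 are positive in every cluster where they were read, Inhba is negative in clusters 2 and 7 and positive in clusters 0 and 4, and H2-Ab1 stays between -0.16 and -0.01.

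H2-Ab1, a class II antigen presentation gene, had ratios from -0.16 to -0.01 over clusters 0, 1, 2, 4, 7 and 11. The class II list had medians from -0.16 to 0.11 in these clusters. No member was past the fold on the anti-PD-1 side, and on the anti-CTLA-4 side 2 of 10 were in cluster 1 (9.47% of all genes) and 1 of 10 in cluster 2 (7.92%). C1qa, of the complement C1q genes, had ratios from -0.15 to 0.18 in clusters 0, 1, 2, 4 and 7. The C1q and tissue macrophage list was mixed in these clusters. In the same order, 5 of 14, 2 of 14, 9 of 14, 8 of 13 and 5 of 11 were higher with anti-PD-1. Its medians were -0.06, -0.20, 0.09, 0.06 and -0.04. In cluster 1, 3 were past the fold on the anti-CTLA-4 side and 0 on the anti-PD-1 side (9.47% and 10.5% of all genes). Cd274, the gene of the ligand PD-L1, had ratios from -0.37 to 0.21 in those 5 clusters, none past the fold. In cluster 7, where Cd274 was highest, it had 660 CPM with anti-PD-1, 610 under anti-CTLA-4 and 261 in control.

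More than 50% of the interferon-induced genes read were higher with anti-PD-1 in each of clusters 0, 1, 2, 4 and 7. These genes include guanylate-binding proteins, immunity-related GTPases and the chemokines for CXCR3. In cluster 7, 32 of 35 were higher with anti-PD-1 and 14 were past the fold, beside 14.3% of all genes (median 0.45, with 0.05 for all genes). In cluster 0, 30 of 35 were higher and 9 past the fold, beside 9.16% of all genes (median 0.29). In cluster 2, 25 of 33 were higher and 8 past the fold, beside 13.1% of all genes (median 0.32). Cluster 1 had 19 of 28 higher and only 3 past the fold, which is near the 10.5% of all genes in that cluster. Cluster 4 had 19 of 26 higher and 6 past the fold, beside 8.22% of all genes.

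A sequence motif known from interferon-induced genes was looked for in the RefSeq promoters of the listed genes. The motif GAAANNGAAA was searched on both strands in the 250 bases before each start (mouse build GRCm38.p6). Of the 38 listed genes 28 matched the RefSeq promoter table, and 19 of those 28 (67.9%) held the motif in at least 1 promoter, against 3.46% of all 27025 genes in the table. The stretches below are from the 4 listed genes with the motif whose median ratio over clusters was highest, among those read in 6 or more clusters. Capitals mark the motif on the gene's own strand or, where it reads TTTCNNTTTC, its reverse complement.
Cxcl10, chr5:92349083-92349112, minus strand: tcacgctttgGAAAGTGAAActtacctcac
Gbp2, chr3:142620594-142620623, plus strand: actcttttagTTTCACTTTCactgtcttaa
Igtp, chr11:58199512-58199541, plus strand: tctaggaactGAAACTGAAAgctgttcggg
Gbp7, chr3:142530273-142530302, plus strand: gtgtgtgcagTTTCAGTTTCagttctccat
The match describes these letters only. The list was drawn up as interferon-induced genes, so its share with the motif describes the list and not the antibodies. Isg15 and Bst2 held the motif with median ratios of -0.04 and 0.01. Cxcl9 and Irf1, with medians of 0.61 and 0.41, did not hold it.

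Cxcl10, which attracts CXCR3-bearing T and NK cells, had 719 CPM with anti-PD-1 in cluster 7, 277 with anti-CTLA-4 and 889 in control (log2 ratio 1.38, 1.13 to 1.63). Gbp2, a guanylate-binding protein gene, had 663, 317 and 361 CPM there (1.06, 0.82 to 1.31), and Iigp1, an immunity-related GTPase gene, 748, 391 and 604 CPM (0.94, 0.71 to 1.16). Cxcl9 had 397, 171 and 536 CPM (1.21, 0.88 to 1.54). For Cxcl9 and Cxcl10 in cluster 7 the anti-PD-1 level was nearer to control, and the anti-CTLA-4 level below both. The list as a whole had a median over control of -0.01 with anti-PD-1 and -0.63 with anti-CTLA-4 in cluster 7. In cluster 2 the medians over control were 0.39 and 0.14, and in cluster 0 they were 0.34 and 0.07.

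Not all members followed. Rsad2, an antiviral gene, was lower with anti-PD-1 in clusters 2 (13 and 39 UMIs, -2.08, -3.15 to -1.18) and 7 (408 and 538 CPM, -0.40). Isg15, a ubiquitin-like antiviral protein gene, had ratios between -0.32 and 0.39 in clusters 0, 1, 2, 4 and 7. Mx1 had a ratio of 2.25 in cluster 7, and 1.10 without 1 cell in each library and 2.86 after thinning. In cluster 2 its ratio of 2.19 became -0.54 without that cell. Over the 11 clusters Gbp2 was higher with anti-PD-1 in 10 of the 10 where it was read (median 0.57) and Isg15 in 5 of 11 (median -0.04).

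The conventional dendritic cell-like cluster 11 had 83 and 81 cells. Interferon-induced genes were higher with anti-PD-1 for 13 of 15, and 8 were past the fold, beside 15.9% of all genes there and 7.52% on the anti-CTLA-4 side (median 0.60). After thinning to 1000 UMIs, which leaves fewer genes to read, the median was -0.43. The alternatively activated list had a median of 0.70, and of -0.04 after thinning. The median depths of the 2 libraries in cluster 11 were 4445 and 4123 UMIs. Retnla, a secreted gene of alternatively activated cells, had 1 UMI with anti-PD-1 and 291 with anti-CTLA-4 there, 62% of the latter in 1 cell. Ccl17, a chemokine for CCR4-bearing T cells, had 731 and 1240 CPM, and 10.0 in control (-0.76, -0.99 to -0.54).

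**Figure D4:**
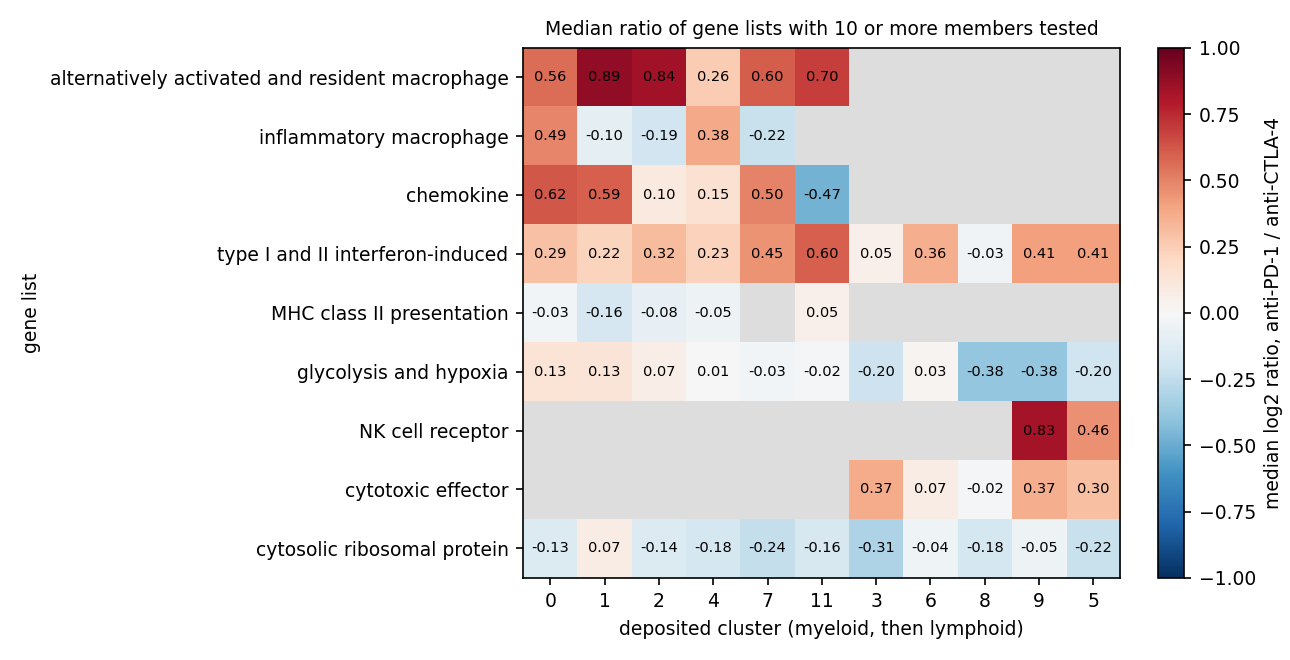
Median log2 ratio of anti-PD-1 to anti-CTLA-4 over the members of 9 gene lists in the 11 clusters (myeloid clusters first), shown where 10 or more members had 50 or more UMIs. The alternatively activated list runs from 0.26 to 0.89 across the myeloid clusters, and the glycolysis list is at -0.20 or below in clusters 3, 5, 8 and 9 only.

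Among the T cell-like clusters, most genes of glycolysis and the response to low oxygen were lower with anti-PD-1 in clusters 3, 8 and 9 and not in cluster 6. None of the 18 listed genes read in cluster 9 was higher with anti-PD-1, 1 of 14 was in cluster 8 and 3 of 21 in cluster 3. The medians were -0.38, -0.38 and -0.20, where the medians of all genes were -0.02, -0.00 and 0.02. NK cell-like cluster 5 had 3 of 15 higher and a median of -0.20. Few members passed the fold on the anti-CTLA-4 side: 2 in cluster 9 (8.73% of all genes), 4 in cluster 8 (10.7%), 3 in cluster 3 (9.44%) and 2 in cluster 5 (8.52%). Most members were thus lower by little. In cluster 6 the list was even, with 7 of 13 higher and 1 past the fold (10.6% of all genes), and in the myeloid clusters its medians were between -0.03 and 0.13.

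Hilpda, a hypoxia-induced lipid droplet gene, was the member furthest apart in clusters 5, 6 and 9. In cluster 9 it had 28 UMIs with anti-PD-1 (51.3 CPM) and 188 with anti-CTLA-4 (159 CPM), with 50 CPM in control (log2 ratio -1.61, -2.26 to -1.06). After thinning the ratio in cluster 9 was -0.44, under the fold. In cluster 5 the ratio was -1.43, and -2.30 after thinning, and in cluster 6 it was -0.59, and -0.39 without 1 cell in each library. In cluster 3 it had 275, 530 and 103 CPM (-0.94, -1.24 to -0.66). In cluster 8 it had 74.3, 184 and 45.4 CPM (-1.28, -2.15 to -0.52, and -0.68 after thinning). The anti-CTLA-4 library was the one further from control in all 3. Aldoa, an enzyme of glycolysis, had 1076 CPM in cluster 9 against 1566 (-0.54, -0.68 to -0.41), and Pgk1, another, 250 against 452 in cluster 8 (-0.85, -1.31 to -0.41). Over control, the list's median in cluster 9 was -0.03 with anti-PD-1 and 0.28 with anti-CTLA-4, and in cluster 8 it was 0.45 and 0.81.

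In the Cd4-led cluster 3, 3 chemokines of activated lymphocytes were higher with anti-PD-1. Ccl5, a chemokine of activated T cells, had 1708 CPM with anti-PD-1, 727 under anti-CTLA-4 and 1617 in control (log2 ratio 1.23, 1.07 to 1.40). Ccl4 had 2354, 762 and 1551 CPM (1.63, 1.47 to 1.78) and Ccl3 701, 166 and 335 CPM (2.08, 1.76 to 2.41). For all 3 genes control lay between the antibodies. Lag3, an inhibitory receptor of activated T cells, had 1367 CPM with anti-PD-1, 783 under anti-CTLA-4 and 843 in control (0.80, 0.64 to 0.97), in 67.0% and 60.9% of cells. Ifng, which encodes interferon-gamma, had 468, 220 and 158 CPM (1.09, 0.78 to 1.40), and 0.62 without 1 cell in each library. It was seen in 22.6% of anti-PD-1 and 23.5% of anti-CTLA-4 cells. The cytotoxic list, which also holds Ccl3, Ccl4 and Ccl5, had 11 of 16 higher in cluster 3. Past the fold were 5, these 3 chemokines among them, beside 11.8% of all genes. Gzmk, a granzyme gene of the list, was on the other side (-1.49). Of the 4 lymphocyte cytokine genes read, Ifng alone was higher, and Lta, the lymphotoxin alpha gene, was at -0.83.

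Macrophage transcripts were also higher with anti-PD-1 in cluster 3. All but 1 of the 14 macrophage/monocyte markers were higher with anti-PD-1, and their summed level was 1258 CPM against 699, with 1068 CPM in control and none of the 14 at 0. Lyz2, the lysozyme of macrophages, had 1757 CPM against 371 (log2 ratio 2.24, 2.03 to 2.46). Ccl8 was seen in 42.1% and 23% of cells of cluster 3, and in 24.0% and 9.17% after thinning. The part of such transcripts in the Ccl3 and Ccl4 values was not tested. Without cells that carried markers of both lineages, the cluster's cytotoxic median was 0.34 and the glycolysis median -0.29.

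The genes of the targeted receptors were read as well. Pdcd1, which encodes PD-1, had 362 CPM with anti-PD-1, 310 under anti-CTLA-4 and 559 in control in cluster 3 (log2 ratio 0.22, -0.07 to 0.52), and ratios of 0.08 and -0.24 in clusters 8 and 9, both with intervals that include 0. In cluster 8 the ratio was 1.35 after thinning. In cluster 6 the ratio was 1.69 from 69 and 22 UMIs, and 0.74 without 1 cell in each library. Ctla4 was lower with anti-PD-1 in cluster 3, with 218 CPM against 299 (-0.46, -0.81 to -0.11), and in cluster 9, with 95.2 against 168 (-0.81, -1.29 to -0.37). Control stood at 235 and 199 CPM. Icos, a costimulatory receptor gene, had ratios of 0.05, 0.22 and 0.08 in clusters 3, 8 and 9. Its intervals include 0 in each. Bhlhe40, a transcription factor of cytokine-producing T cells, was lower with anti-PD-1 in cluster 3, at 404 CPM against 687, with 270 in control (-0.76, -1.01 to -0.52).

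In the cycling T cell-like cluster 9 the NK cell receptor list was higher with anti-PD-1. All 12 of its genes that were read were higher and 9 were past the fold, beside 8.13% of all genes (median 0.83). Klrb1c, which encodes NK1.1 in some strains, had 29 and 24 UMIs from cluster totals of 546289 and 1181508, or 53.1 and 20.3 CPM, with 14.7 in control (log2 ratio 1.38, 0.55 to 2.23, and 2.26 after thinning). Ncr1, the NKp46 receptor gene, had 121, 65.2 and 106 CPM (0.89, 0.39 to 1.38). Tyrobp and Fcer1g, adaptor genes that macrophages also express, are among its members (1.19 and 1.08). Of the 14 macrophage/monocyte markers 12 were higher with anti-PD-1 in cluster 9, with summed levels of 1620 and 1054 CPM and 1624 in control, and none at 0. The 8 NK cell markers, Klrb1c and Ncr1 among them, were all higher with anti-PD-1, at 3758 against 2669 CPM, with 956 in control. Of the 5 T cell markers 1 was higher, with summed levels of 2836 and 3298 CPM and 3869 in control. The part of the cluster's mix of cells in the list's ratios was not tested as such. Without cells that carried markers of both T cells and macrophages the median was 0.70. Cd4, not a list member, had 19 UMIs with anti-PD-1 and 90 with anti-CTLA-4 (-1.10, -1.93 to -0.41, and -0.21 after thinning), while Cd8a had a ratio of -0.02, values chosen after they were seen.

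The NK cell-like cluster 5 leaned the same way. Of the 14 NK receptor genes read, 11 were higher with anti-PD-1 and 5 past the fold, beside 13.1% of all genes (median 0.46). Klrb1c had 490 CPM with anti-PD-1, 250 under anti-CTLA-4 and 414 in control (log2 ratio 0.97, 0.66 to 1.29), and Klra8, a Ly49 receptor gene, 317, 181 and 218 CPM (0.80, 0.44 to 1.19). The cytotoxic list had 10 of 15 higher, with 2 past the fold on each side (13.1% and 8.52% of all genes). Gzma had 12096, 8202 and 5420 CPM (0.56, 0.50 to 0.62), Gzmb 4253, 2703 and 1392 CPM (0.65, 0.56 to 0.75), and Nkg7, a granule protein gene, 4609, 2940 and 3349 CPM (0.65, 0.56 to 0.74, and 0.52 after thinning). Other granzymes went the other way, with Gzmc at -0.41 and Gzmd at -2.46. For Gzma and Gzmb both antibodies lay above control and anti-PD-1 was the higher. Ifitm1, an interferon-induced membrane protein gene, was lower with anti-PD-1, at 414 CPM against 1503, with 844 in control (-1.86, -2.07 to -1.65), and so was Cxcr6, a chemokine receptor of tissue lymphocytes (-1.40, -2.08 to -0.77). The interferon-induced list, which does not hold Ifitm1, had 14 of 15 higher and 5 past the fold, beside 13.1% of all genes (median 0.41). The 5 T cell markers summed to 217 CPM with anti-PD-1, 459 under anti-CTLA-4 and 264 in control in this cluster, none at 0, and their part in these values was not tested.

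In the Cd8-led cluster 8, 1499 genes were read and 342 were past the fold. That number was 152 without the cell with most UMIs of each gene in each library. Fewer genes were read in cluster 8 than in clusters 3, 5 and 9 (2838, 2722 and 3962), so these counts are not compared. Ccl5 had 9261 CPM with anti-PD-1, 6587 under anti-CTLA-4 and 5309 in control (log2 ratio 0.49, 0.40 to 0.58). Gzmb was lower with anti-PD-1, at 3045 CPM against 4109, with 2879 in control (-0.43, -0.56 to -0.30), and Gzmc, another granzyme, had 6 and 71 UMIs (-3.31, -4.91 to -2.22, and -1.72 after thinning). The interferon-induced list was even, with 7 of 16 higher and 4 past the fold, beside 12.1% of all genes (median -0.03, and 0.58 after thinning). Macrophage transcripts were higher here too: 12 of 14 markers, with summed levels of 3991 and 1966 CPM and 2415 in control, and 1 marker at 0 with anti-CTLA-4. Their part in these values was not tested.

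In the Il7r- and Cd7-led cluster 6, Hspa1a (1.08, 0.44 to 1.77) and Cxcr3, the receptor for Cxcl9 and Cxcl10 (0.88, 0.25 to 1.54), were higher with anti-PD-1. The interferon-induced list had 9 of 13 higher and 1 past the fold, beside 11.8% of all genes. In cluster 9 this list had 11 of 14 higher and 4 past the fold, beside 8.13% of all genes (median 0.41). In cluster 3 it had 10 of 15 higher, with 0 past the fold on the anti-PD-1 side and 1 on the other (11.8% and 9.44%). In cluster 6 Gzma had 23 and 183 UMIs (-2.90), and -1.94 without 1 cell in each library. The 8 NK cell markers, Gzma among them, summed there to 653 CPM with anti-PD-1, 1316 under anti-CTLA-4 and 1286 in control. Of these markers 3 were higher with anti-PD-1, and their part in these values was not tested. Mast cell genes were a matter of few cells: Cma1, a mast cell chymase, had 222 UMIs with anti-CTLA-4 in 1.6% of cells and 0 of 281870 UMIs with anti-PD-1, which allows up to 10.6 CPM.

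**Figure D5:**
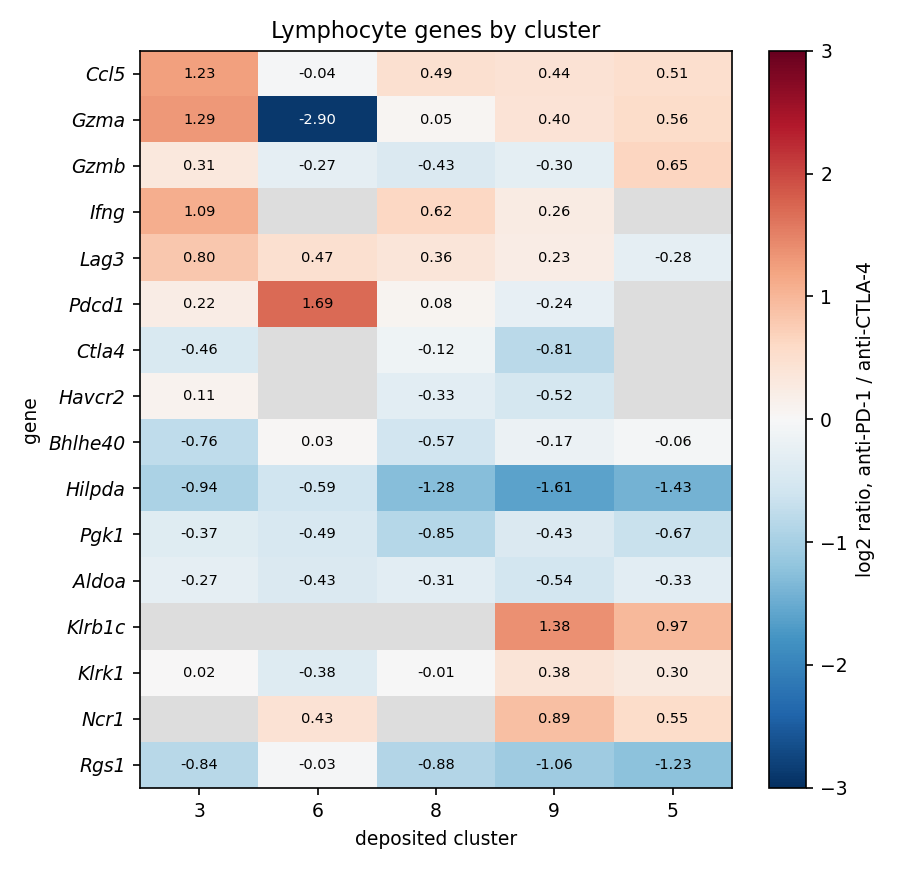
Log2 ratio of anti-PD-1 to anti-CTLA-4 for 16 lymphocyte genes in clusters 3, 6, 8, 9 and 5, with grey where a gene had under 50 UMIs in the 2 libraries together. Hilpda, Pgk1, Aldoa and Rgs1 are negative in all 5 clusters, and Ccl5 lies between -0.04 and 1.23.

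A few genes differed in the same direction over most cell types. Of 2945 genes read in 6 or more clusters, 81 were higher with anti-PD-1 in every cluster where they were read and 46 lower in every one. Hspa1a, an inducible HSP70 chaperone gene, was higher in 10 of 10, with ratios from 0.42 to 1.98, although in cluster 7 the ratio of 0.76 was 0.46 after thinning. In cluster 2 it had 365 CPM with anti-PD-1, 92.1 under anti-CTLA-4 and 111 in control, and in cluster 0 it had 562, 220 and 362 CPM. The anti-CTLA-4 level was the lowest of the 3 libraries in clusters 0, 1, 2, 3, 5, 6, 7 and 9. Hspa1b followed in clusters 0, 1 and 2 (1.74, 1.59 and 2.43). Both genes belong to the immediate early and AP-1 list, which as a whole did not follow them. With anti-PD-1, 6 of 20 members read were higher in cluster 0, 5 of 18 in cluster 1 and 6 of 19 in cluster 2. The medians were -0.25, -0.18 and -0.30. In clusters 3 and 8, 8 of 14 and 8 of 10 were higher. Heat-shock genes also respond to handling of the tissue, and whether that differed between the libraries was not tested.

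Rgs1, a regulator of chemokine receptor signalling, was lower with anti-PD-1 in 11 of 11 clusters, with ratios from -1.23 to -0.03. In cluster 6, where the ratio was nearest to 0, it was 0.21 after thinning. In cluster 5 it had 502 CPM with anti-PD-1, 1181 under anti-CTLA-4 and 865 in control. In cluster 0 the order was 305, 420 and 650 CPM, and in cluster 3 it was 547, 982 and 506 CPM. Control was thus the highest in cluster 0 and the lowest in cluster 3, while anti-PD-1 stayed below anti-CTLA-4 in each. Hist1h1c, a linker histone gene, was lower in 10 of 10 and Pim3, a kinase gene, in 6 of 6, with medians of -0.79 and -0.84. Hist1h1c in cluster 11 was at 0.04 after thinning, and Pim3 in cluster 9 at 0.15 without 1 cell in each library. Gm4841, an interferon-inducible GTPase family gene by its annotation in mouse, was higher in 6 of 6 (median 0.85).

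Cytosolic ribosomal protein genes were lower with anti-PD-1 in most clusters and by little. All 22 were lower in clusters 3, 4 and 7, with medians of -0.31, -0.18 and -0.24, and 1 member in all clusters, in cluster 8, was past the fold. Cluster 1 was the exception, with 15 of 22 higher and a median of 0.07. Since the ratios within a cluster share 1 total, a lower share of these abundant transcripts is a higher share of others, and the median of all genes lay between -0.02 and 0.07.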

How the data were processed

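Single-cell RNA libraries of sorted CD45+ tumour cells were read from the raw UMI count matrices that the authors deposited, 1 per treatment, and cluster membership was taken from the deposited tables of all CD45+ cells and of lymphoid cells. Cell Ranger, Seurat and the build mm10 are named in the submitters' processing notes, without versions. The deposited tables also hold 2 columns that were not used. The 2 listed cells without a column in a matrix were left out.

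Counts were summed per gene, cluster and library and expressed as CPM. The log2 ratio of anti-PD-1 to anti-CTLA-4 used 0.5 added UMIs. Its 95% interval is the exact conditional binomial one, shares have exact Clopper-Pearson intervals, and all intervals cover counting error only. Depth was 11176246 UMIs for anti-PD-1 and 11211310 for anti-CTLA-4. A gene was read where both libraries together held 50 UMIs. Work was done in Python 3.11.15 with numpy 2.4.6, pandas 2.3.3 and scipy 1.17.1, and the calculation was tested on simulated data.

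Named genes were those of 2 key lists, the 4 highest and 4 lowest ratios of a cluster, the 4 members of a list furthest from 0 in a cluster, and 8 genes per direction over clusters. For a gene so named, values in other clusters are also given. The limit of 10% of cells, and the removal of the top cell, were added after seeing the data. The gene lists and the comparison itself were chosen with earlier results of these data known. Of 378 list genes, 373 were found in the matrix. Doublets were not called; cells with 2 or more UMIs of T cell markers and 5 or more of macrophage markers were left out as an alternative. Other alternatives were median-of-ratios scaling, other minimum counts, thinning to 1000 UMIs and leaving out the 3% of cells with most UMIs.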

Additional observations from a re-analysis of the deposited data

How the results depend on the processing

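Under the 3 alternatives tried, all 55 cluster share ratios lay within the counting interval of the main ratio. Ratios whose interval excluded 1 thus kept their direction. Those whose interval included 1, such as that of cluster 8, were not held to a direction. The number of genes past the fold in clusters 0 to 9 and 11, in that order, was 988, 976, 1095, 602, 635, 588, 342, 650, 342, 668 and 427. It was 1702, 1834, 1949, 1354, 1418, 1364, 978, 1453, 947, 1554 and 1084 with a minimum of 20 summed UMIs, and 553, 476, 596, 260, 272, 239, 110, 318, 120, 284 and 165 with a minimum of 100, where fewer genes are read. After thinning to 1000 UMIs it was 560, 276, 423, 259, 163, 254, 176, 253, 86, 126 and 87. Without the cell with most UMIs of each gene in each library, an alternative chosen after seeing the data, it was 606, 578, 688, 296, 300, 292, 126, 411, 152, 365 and 215. Median-of-ratios scaling, leaving out cells with markers of 2 lineages (97 anti-PD-1 and 58 anti-CTLA-4 cells) and leaving out the 3% of cells with most UMIs gave counts within 1.5-fold. Of 770 list medians under these settings, 56 were on the other side of 0, 38 of them from a main median under 0.1 in size and 18 from a larger one, which are given here. After thinning these were the key genes of myeloid cells in cluster 1 (-0.043), proliferation genes in cluster 1 (-0.081), naive and memory T cell genes in cluster 3 (-0.10), proliferation genes in cluster 5 (-0.26), regulatory T cell genes in cluster 5 (0.060), naive and memory T cell genes in cluster 5 (0.36), immediate early and AP-1 genes in cluster 8 (-0.27), naive and memory T cell genes in cluster 9 (-0.26), key genes of myeloid cells in cluster 11 (-0.58), alternatively activated and resident macrophage genes in cluster 11 (-0.044), inflammatory macrophage genes in cluster 11 (-0.42), type I and II interferon-induced genes in cluster 11 (-0.43) and mitochondrially encoded genes in cluster 11 (0.017). Without the cell with most UMIs of each gene these were the glycolysis and hypoxia genes in cluster 1 (-0.011) and naive and memory T cell genes in cluster 5 (0.19). With a minimum of 20 summed UMIs these were the regulatory T cell genes in cluster 3 (-0.43) and complement C1q and tissue macrophage genes in cluster 11 (0.045). Without cells with markers of 2 lineages these were the T helper and effector transcription factor genes in cluster 9 (-0.12). Of 519 ratios of named genes, 17 were on the other side of 0, 13 of them from a main ratio under 1.5-fold (Rgs1 in cluster 6 and Nos2 in cluster 4 among them) and 4 from a larger one: Ptgs2 in cluster 1 (0.065) and Hist1h1c in cluster 11 (0.037) after thinning, and Mx1 in cluster 2 (-0.54) and Pim3 in cluster 9 (0.15) without the top cell. Apart from those 4, 81 of the 519 lay outside the counting interval of their main ratio, 59 of them after thinning. The cause was not tested. No paired analysis was possible because each antibody has 1 library. Calls below 50 summed UMIs, and any difference between mice, cannot be read at this depth and design.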
